A study of Homo sapiens with 12 samples.

Results

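The genes described here build the nuclear lamina and the membranes around it. Members were taken by gene symbol from a list of lamina and envelope genes and are *LMNA*, *LMNB1*, *LMNB2*, *LBR*, *EMD*, *TMPO*, *LEMD3*, *SUN1*, *SUN2* and *SYNE1*, 10 of the 58288 genes in the count table. All 10 passed the filter on low counts in every comparison. They were measured by RNA-seq in HL-60/S4, an established human promyelocytic leukemia cell line grown in calcium-supplemented medium, with 3 libraries in each of 4 groups and each library from its own flask. The groups were undifferentiated promyelocytes given vehicle (water), promyelocytes given 16 ng/mL TNF-α for 2 h, cells made granulocytic by 4 days in ATRA (all-trans retinoic acid, 1 µM) and given vehicle, and such granulocytes given 16 ng/mL TNF-α for 2 h. All libraries came from one cell line, so the p-values measure the spread between flasks. Promyelocytes and granulocytes were handled as separate experiments. Before treatment the granulocytes were put in fresh medium that still held 1 µM ATRA, at a lower cell density than the promyelocytes. Cell type and experiment cannot be told apart wherever levels or responses are compared between them.

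The lamina is a mesh of lamin filaments under the inner nuclear membrane. *LMNA* encodes the A-type lamins A and C, and *LMNB1* and *LMNB2* the B-type lamins. *LBR* encodes the lamin B receptor, which anchors the lamina and heterochromatin to the membrane, and *EMD* (emerin), *TMPO* (the LAP2 proteins) and *LEMD3* (MAN1) encode LEM domain proteins, which bind the chromatin protein BAF. *SUN1*, *SUN2* and *SYNE1* (nesprin-1) encode parts of the LINC complex, which couples the nucleus to the cytoskeleton. Granulocytes have lobed nuclei, and a high level of the lamin B receptor with little lamin A is known to go with that shape.

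Library totals ran from 22829189 to 31895061 counted read pairs, and 3 counts stood at 0.0945 to 0.136 CPM (counts scaled to a common library size with TMM over the 12 libraries), a floor that covers counting error only. Within groups the libraries differed by 3.59 to 14.1 times the variance that sampling alone gives. Promyelocytes with TNF-α held the highest value, with 7.34 to 14.1, beside 4.08 to 5.53 in granulocytes with vehicle. The 14 granulocyte markers summed to 197 to 212 CPM in vehicle-treated promyelocytes and to 5338 to 5576 CPM in vehicle-treated granulocytes. However, *LTF* and *FCGR3B* were at or under 3 counts in both, and *CEACAM8* held at most 8 counts in the granulocytes. *MMP9* was lower in the granulocytes, at 1.60 CPM on average beside 2.45. The 8 promyelocyte markers summed to 7782 to 8618 and 2271 to 2488 CPM in the same groups. Most of each sum was *MPO*, at 6422 and 2019 CPM on average. Of the 7 that could be tested, 6 were lower in the granulocytes and 1 was higher. The higher one was *KIT*, at 25.61 CPM on average in the granulocytes beside 4.198 in the promyelocytes. The 12 monocyte and macrophage markers summed to at most 77.6 CPM in any library. *CD163*, *MRC1*, *MARCO* and *C1QB* were among those at or under 3 counts in every group. The 3 that could be tested were all higher in granulocytes than in promyelocytes with vehicle, as were 36.6% of all genes. They were *CSF1R* (3.99 and 49.7 CPM on average, promyelocytes first), *FCGR1A* (9.41 and 20.4) and *CCR2* (0.965 and 3.44). In bulk RNA, fewer cells of a type and less RNA per cell cannot be told apart.

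Stretches of sequence before the start sites of 6 members are shown: *LMNA*, *LMNB2* and *EMD* because they are the members that rose with TNF-α in granulocytes, *LBR* because it had the highest level of the members, and *SUN2* and *SYNE1* for their match to the NF-kB consensus. The other members that fell (*LMNB1*, *TMPO* and *LEMD3*) are not shown. They are from RefSeq, build GRCh38.p14, which had entries for 9 of the 10 members, all but *SUN1*. Both strands were searched in the 250 bases before each start. Capitals mark matches to the CCAAT box (CCAAT), the E2F site (TTTCCCGC, TTTCGCGC, TTTGGCGC or TTTGCCGC), the CHR element of cell cycle genes (TTTGAA) and the NF-kB consensus. Where exons overlap the window, the first 4 stretches stop at the exon, and the last 2 show 30 bases around the NF-kB match.
*LMNA*, first start, chr1:156082323-156082572, plus strand: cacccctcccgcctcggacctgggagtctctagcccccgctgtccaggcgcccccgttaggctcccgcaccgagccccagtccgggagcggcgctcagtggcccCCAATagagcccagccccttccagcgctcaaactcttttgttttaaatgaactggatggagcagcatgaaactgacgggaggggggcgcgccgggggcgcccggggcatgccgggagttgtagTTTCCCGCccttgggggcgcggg
*LMNB2*, chr19:2456997-2457209, minus strand: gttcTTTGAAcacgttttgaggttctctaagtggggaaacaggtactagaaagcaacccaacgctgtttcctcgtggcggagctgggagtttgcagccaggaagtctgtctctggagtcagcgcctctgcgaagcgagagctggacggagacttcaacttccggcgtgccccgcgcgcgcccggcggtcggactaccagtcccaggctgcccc
*EMD*, chrX:154379045-154379196, plus strand: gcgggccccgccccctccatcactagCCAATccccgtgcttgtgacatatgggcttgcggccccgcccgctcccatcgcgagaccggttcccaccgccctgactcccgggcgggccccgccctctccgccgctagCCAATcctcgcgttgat
*LBR*, chr1:225428926-225429071, minus strand: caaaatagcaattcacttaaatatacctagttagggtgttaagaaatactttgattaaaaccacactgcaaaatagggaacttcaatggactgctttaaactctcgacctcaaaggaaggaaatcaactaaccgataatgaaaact
*SUN2*, second start, chr22:38755510-38755539, minus strand: gtctgcgggcGGGACTTCCCgggcagcctc
*SYNE1*, first start, chr6:152637425-152637454, minus strand: gggaccatcaGGGAACCTCCCagcctttca

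NF-kB is the transcription factor that TNF-α is best known to activate. Its consensus was found before 1 of the 3 starts of *SUN2*, at 63 to 54 bases. Of the 4 starts of *SYNE1*, 1 had 2 overlapping matches, from 82 to 72 bases. Of the 30 bases shown, 19 lie in annotated exons for *SUN2* and 30 for *SYNE1*. No start of the other 7 matched members had the consensus. Of 35114 promoters of the same length, 9.96% held it. That share counts starts and not genes, and several members have more than 1 start. The CCAAT box stood in 32.0% of those promoters, the CHR element in 13.3%, the E2F site in 2.79% and GGGCGG, which was searched but is not capitalized and overlaps the E2F match of *LMNA*, in 42.6%. No match to any of these motifs lay in the *LBR* window, which says only that these letters are not there. A match is a string of letters and not a measured site.

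Levels of different genes were compared per kilobase of exon (CPM per kilobase), since long genes collect more read pairs. *LBR* had the highest level of the 10 genes in every group, from 87.4 ± 4.06 CPM per kilobase in promyelocytes with TNF-α to 149.9 ± 5.11 in granulocytes with vehicle (SD, n = 3). In promyelocytes with vehicle *LMNB1* (60.5 ± 1.75), *TMPO* (57.4 ± 0.974) and *LMNB2* (45.4 ± 2.32) followed, and *LMNA* was 8th of 10 with 6.94 ± 0.661. In granulocytes with vehicle *SUN2* came second with 52.0 ± 0.442 CPM per kilobase, and *LMNA* was at 1.21 ± 0.134. *SYNE1* was last in each group, at 0.00800 to 0.0576 CPM per kilobase on average. Its exon length of 46064 bases counts every annotated isoform together, so a short isoform would be scaled too low. In no group did the libraries of neighbours in this order overlap, as the plot of levels shows.

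**Figure D1:**
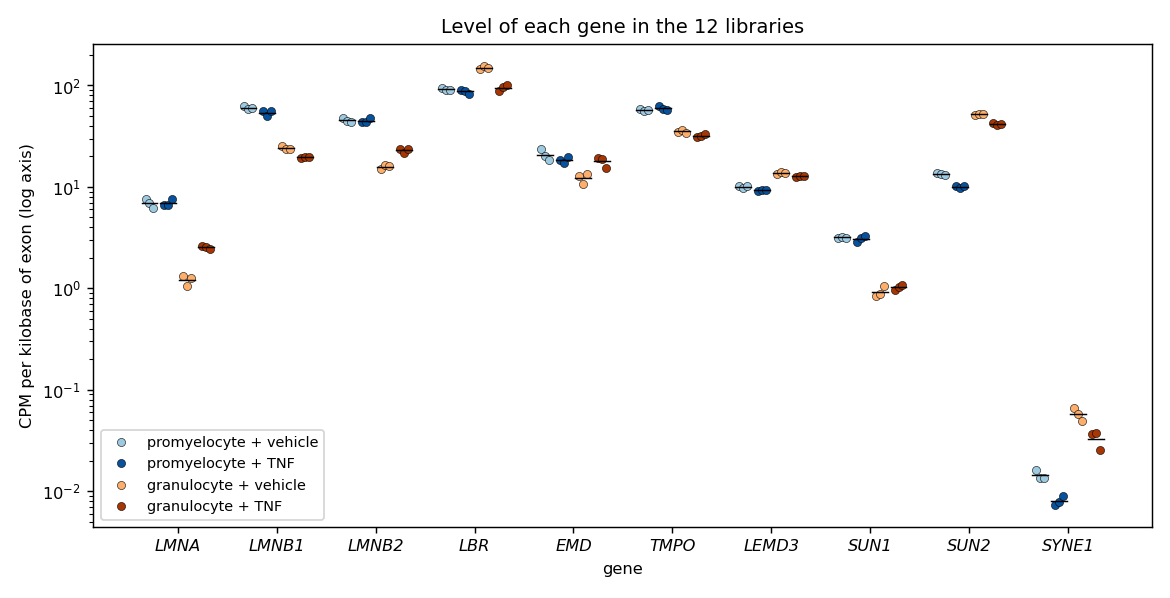
Level of each of the 10 genes in CPM per kilobase of exon (log axis), with 1 point per library and a line at the mean of the 3 libraries of each group. *LBR* is highest in all 4 groups, and *LMNA* and *SUN1* are lower in granulocytes than in promyelocytes.

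The response to TNF-α was asked within each cell type, with edgeR's quasi-likelihood test and an adjusted p under 0.05 over all genes tested. In promyelocytes 1 of the 10 genes passed, *SUN2*, which fell, where 14.8% of all 16250 genes tested passed. In granulocytes 9 of 10 passed, 3 up (*LMNA*, *LMNB2*, *EMD*) and 6 down (*LMNB1*, *LBR*, *TMPO*, *LEMD3*, *SUN2*, *SYNE1*), where 49.2% of 16944 genes passed. The coefficient of variation between libraries in edgeR's fit was 0.0673 in promyelocytes and 0.0487 in granulocytes, so small changes pass less readily in promyelocytes. The part of this spread in the difference between the counts was not tested. The median log2 difference of the members was -0.07 in promyelocytes, beside -0.0094 for all genes, and -0.15 in granulocytes, beside -0.0047. The TNF-α and vehicle libraries did not overlap for 4 members in promyelocytes (30.9% of all genes) and for 9 in granulocytes (55.1% of all genes).

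**Figure D2:**
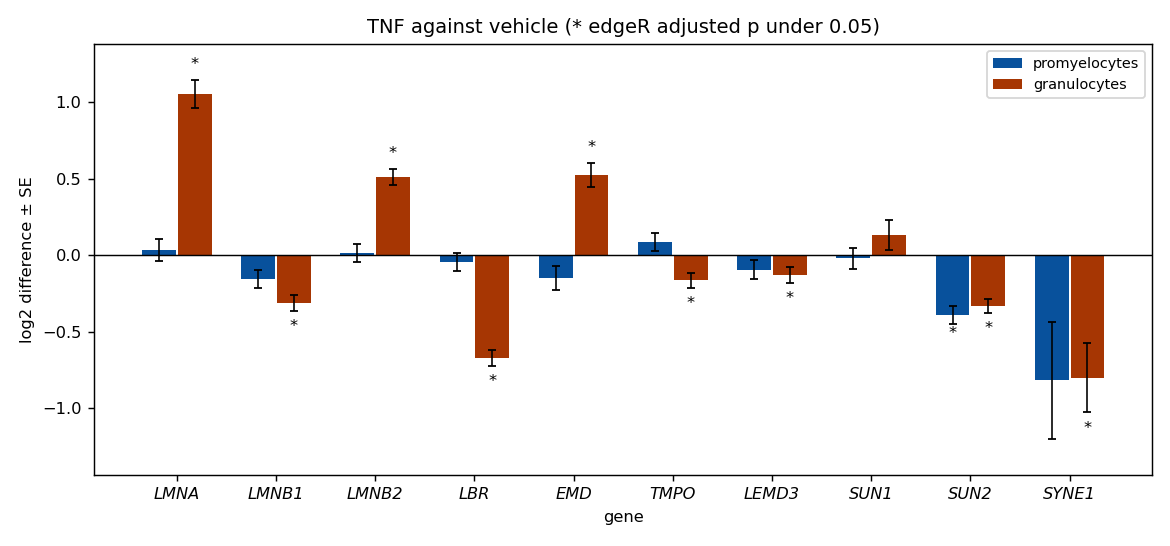
Log2 difference between TNF-α and vehicle for each gene in promyelocytes (blue) and granulocytes (brown), with the standard error as bars and a star where edgeR's adjusted p was under 0.05. *LMNA* rises most in granulocytes, by 1.05, and *SUN2* is the single gene with a star in both cell types.

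*LMNA* (chromosome 1, 156082573 to 156140089, plus strand) rose with TNF-α in granulocytes. The granulocyte vehicle libraries held 9.15, 7.41 and 8.88 CPM, and the TNF-α libraries 18.4, 17.7 and 17.1 CPM. The groups did not overlap, and the log2 difference was 1.05 ± 0.0936 (SE, edgeR adjusted p = 4.77e-12), a 2.08-fold increase. In promyelocytes the vehicle libraries held 52.9, 48.8 and 43.7 CPM and the TNF-α libraries 46.7, 46.7 and 52.9 CPM. These groups overlapped, with a log2 difference of 0.03 (95% interval -0.11 to 0.18, edgeR adjusted p = 0.803). The granulocyte TNF-α libraries were still below every promyelocyte library.

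The B-type lamins moved apart in granulocytes. *LMNB2* (chromosome 19, 2427638 to 2456996, minus strand) held 81.8, 89.0 and 87.8 CPM with vehicle and 127.7, 116.7 and 128.3 CPM with TNF-α. The groups did not overlap, and it rose by 0.51 ± 0.0527 on the log2 scale (edgeR adjusted p = 1.96e-10). Of its exon bases 5.58% are shared with *TIMM13* and *MIR7108* on the same strand, and pairs there are not counted for either gene. *LMNB1* (chromosome 5, 126776623 to 126837020, plus strand) held 91.0, 86.2 and 86.1 CPM with vehicle and 70.6, 71.3 and 71.9 CPM with TNF-α. All TNF-α libraries were lower, and the log2 difference was -0.31 ± 0.0513 (edgeR adjusted p = 3.05e-06).

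Neither B-type lamin passed in promyelocytes. *LMNB1* held 226.6, 214 and 218.5 CPM with vehicle and 201.4, 179.9 and 201.4 CPM with TNF-α there. These groups did not overlap, with a log2 difference of -0.15 (95% interval -0.27 to -0.04), but the edgeR adjusted p was 0.0921. With all 12 libraries in 1 fit it was 0.0199. *LMNB2* differed by 0.02 on the log2 scale (95% interval -0.10 to 0.13, edgeR adjusted p = 0.899).

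*LBR* (chromosome 1, 225401502 to 225428925, minus strand) had, of the 10 genes, the largest called decrease in granulocytes after *SYNE1*. Its vehicle libraries held 771.1, 819.2 and 774.4 CPM and its TNF-α libraries 466.2, 502.2 and 530.8 CPM. The groups were far apart relative to their spread, and *LBR* fell by 0.67 ± 0.0531 on the log2 scale, 1.59-fold (edgeR adjusted p = 2.08e-13). In promyelocytes it held 496.3, 471.1 and 476.3 CPM with vehicle and 474.9, 468.6 and 435.2 CPM with TNF-α. There the groups overlapped (log2 difference -0.04, 95% interval -0.15 to 0.07, edgeR adjusted p = 0.683). Of the granulocyte TNF-α libraries, 1 lay below and 2 above all promyelocyte vehicle libraries.

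The balance between these genes was read as ratios per kilobase within each library, as a description with no test. The ratio of *LMNA* to *LMNB1* was 0.0523, 0.0447 and 0.0537 in granulocytes with vehicle and 0.1358, 0.129 and 0.124 with TNF-α, while promyelocyte libraries held 0.104 to 0.1365. The ratio of *LBR* to *LMNA* was 124.9 ± 19.1 in granulocytes with vehicle and 37.5 ± 3.84 with TNF-α, beside 13.3 ± 1.08 and 12.6 ± 1.44 in promyelocytes with vehicle and TNF-α (SD, n = 3). *LMNB1* exceeded *LMNB2* in all groups but granulocytes with TNF-α, where the ratio was 0.860 ± 0.0474, against 1.53 ± 0.120 with vehicle.

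**Figure D3:**
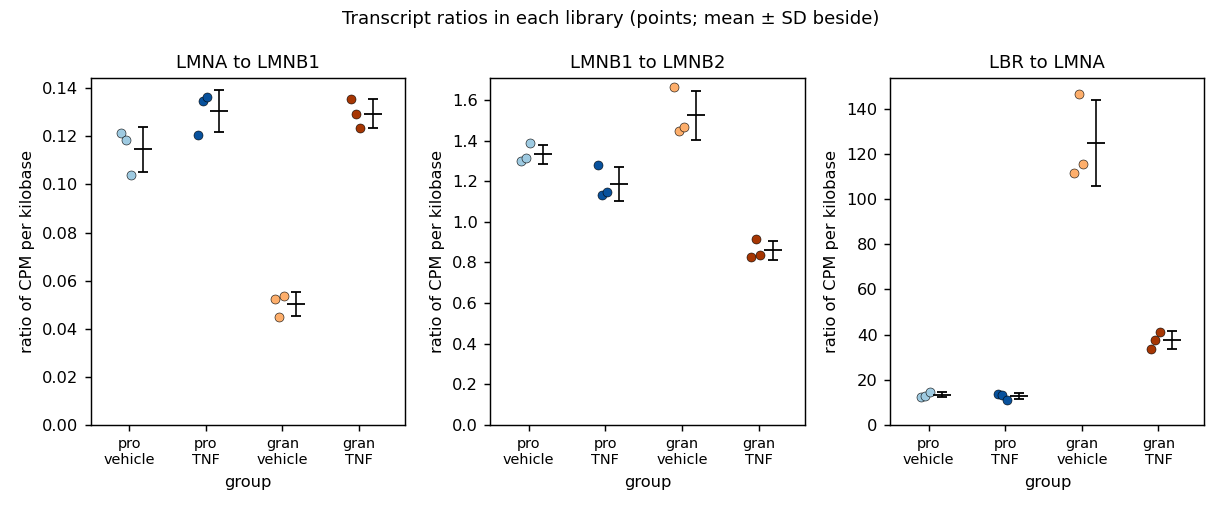
Ratios of *LMNA* to *LMNB1*, *LMNB1* to *LMNB2* and *LBR* to *LMNA* (each in CPM per kilobase, linear axes from 0), with 1 point per library and the mean ± SD of 3 libraries beside it. The *LBR* to *LMNA* ratio is 111.9 to 146.9 in granulocytes with vehicle and 33.6 to 41.3 with TNF-α.

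The LEM domain genes did not move as a group. *EMD* (chromosome X, 154379197 to 154381523, plus strand) held 26.0, 21.7 and 26.8 CPM in granulocytes with vehicle and 39.1, 37.9 and 31.1 CPM with TNF-α. All TNF-α libraries were higher, and *EMD* rose by 0.53 ± 0.0779 on the log2 scale (edgeR adjusted p = 5.1e-07). In promyelocytes it held 47.7, 41.0 and 37.1 CPM with vehicle and 37.1, 35.1 and 39.5 CPM with TNF-α, overlapping groups that did not pass (log2 difference -0.15, 95% interval -0.30 to 0.01, edgeR adjusted p = 0.246).

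*TMPO* (chromosome 12, 98515512 to 98550379, plus strand) held 299.7, 314.7 and 294.9 CPM in granulocytes with vehicle and 263.9, 271.4 and 284.4 CPM with TNF-α. The groups did not overlap, and it fell by 0.16 ± 0.0493 on the log2 scale (edgeR adjusted p = 0.00569), a call lost without the second vehicle library (edgeR adjusted p = 0.0584). Near-identical pseudogene copies of *TMPO* exist, so pairs that match both make its count uncertain. In promyelocytes the log2 difference was 0.09 (95% interval -0.02 to 0.20, edgeR adjusted p = 0.351). *LEMD3* (chromosome 12, 65169571 to 65248327, plus strand) held 74.66, 77.97 and 76.71 CPM in granulocytes with vehicle and 69.3, 72.0 and 70.6 CPM with TNF-α. Its fall of 0.13 ± 0.052 on the log2 scale was close to the threshold (edgeR adjusted p = 0.0393), and the call was lost in 6 of the 6 other fits with all libraries and in 5 of the 6 fits without 1 library. In promyelocytes *LEMD3* differed by -0.09 (95% interval -0.21 to 0.02, edgeR adjusted p = 0.347).

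Of the LINC complex genes, *SUN2* (chromosome 22, 38734725 to 38794143, minus strand) fell with TNF-α in both cell types. In promyelocytes it held 88.3, 87.6 and 86.0 CPM with vehicle and 66.6, 62.7 and 66.9 CPM with TNF-α. In granulocytes it held 335, 335.9 and 340.4 CPM with vehicle and 277.2, 263.2 and 272.2 CPM with TNF-α. The groups were separate in both, and the log2 differences were -0.39 ± 0.0582 (edgeR adjusted p = 5.76e-05) in promyelocytes and -0.33 ± 0.0474 (edgeR adjusted p = 2.87e-07) in granulocytes.

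*SYNE1* (chromosome 6, 152121684 to 152637801, minus strand) was present at very few counts. Its promyelocyte libraries held 23, 17 and 18 counts with vehicle and 9, 10 and 13 with TNF-α, and its granulocyte libraries 79, 81 and 67 with vehicle and 37, 48 and 26 with TNF-α. TNF-α libraries were lower than vehicle libraries in both cell types. The fall of 0.80 ± 0.226 on the log2 scale passed in granulocytes (edgeR adjusted p = 0.00325), and the difference of -0.82 ± 0.382 in promyelocytes did not (edgeR adjusted p = 0.173). *SUN1* (chromosome 7, 816615 to 896435, plus strand) was the one gene that passed in neither cell type, with 9.92, 10.4 and 12.3 CPM in granulocytes with vehicle and 11.3, 12.2 and 12.7 CPM with TNF-α. Its log2 difference was 0.13 there (95% interval -0.06 to 0.33, edgeR adjusted p = 0.275) and -0.02 in promyelocytes (95% interval -0.15 to 0.11, edgeR adjusted p = 0.884). Of its exon bases 15.6% are shared with *GET4* on the same strand.

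The interaction term of a model with all 12 libraries asked whether the responses of the cell types differed. Each response came from its own experiment, so cell type and experiment cannot be told apart here either. Of the 10 genes 5 passed, 3 higher and 2 lower, where 24.0% of all 18124 genes tested did (14.1% higher and 9.88% lower). The response of granulocytes was higher than that of promyelocytes for *LMNA*, by 1.06 ± 0.122 on the log2 scale (edgeR adjusted p = 2.07e-07), for *EMD*, by 0.71 ± 0.131 (edgeR adjusted p = 0.000175), and for *LMNB2*, by 0.54 ± 0.0828 (edgeR adjusted p = 1.98e-05). It was lower for *LBR*, with a difference of -0.59 ± 0.0784 (edgeR adjusted p = 2.17e-06), and for *TMPO*, with -0.21 ± 0.0725 (edgeR adjusted p = 0.0331). The call of *TMPO* was lost in 6 of the 12 fits without 1 library. For *SUN2* the difference between the responses was 0.10 (95% interval -0.04 to 0.24, edgeR adjusted p = 0.335), for *LMNB1* -0.12 (-0.27 to 0.03, edgeR adjusted p = 0.274) and for *SYNE1* 0.05 (-0.68 to 0.78, edgeR adjusted p = 0.947).

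Base composition moved with these responses. The interaction had a median of -0.095 over genes with under 45% GC in their exons and of 0.207 over genes with 55% or more. For the same classes the median response to TNF-α was -0.062 and 0.087 in granulocytes, and 0.058 and -0.099 in promyelocytes. *LMNA* (59.2% GC), *LMNB2* (62.6%) and *EMD* (61.3%) are in the GC-rich class, as is *SUN2* (61.3%), with an interaction of 0.10. *LBR* (42.0%), *TMPO* (39.0%), *LEMD3* (42.1%) and *SYNE1* (44.1%) are in the GC-poor class, the last 2 with interactions of 0.003 and 0.05. After trends with GC and length were removed from each library, the interaction was 0.81 for *LMNA*, 0.47 for *EMD*, 0.25 for *LMNB2* and -0.52 for *LBR*, all past the threshold (edgeR adjusted p = 3.24e-07, 0.00113, 0.00614 and 1.58e-07). *TMPO* was at -0.12 and no longer passed (edgeR adjusted p = 0.132), and *LMNB1* passed with -0.23 (edgeR adjusted p = 0.0121). *SUN2* turned to -0.17 and did not pass (edgeR adjusted p = 0.0509).

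Proliferation markers were read in the same TNF-α comparisons. Of 14 mitosis markers 11 fell with TNF-α and 0 rose, where 24.8% of all genes fell and 24.4% rose, and their summed level went from 2307 to 2456 CPM with vehicle to 2041 to 2137 CPM with TNF-α. In promyelocytes 1 rose and 1 fell, where 8.15% of all genes rose and 6.65% fell, with 3536 to 3709 and 3592 to 3729 CPM. Of 14 S phase markers 2 rose and 6 fell in granulocytes. The 12 monocyte and macrophage markers, of which 3 could be tested, summed to 72.2 to 77.6 CPM in granulocytes with vehicle and 41.8 to 48.8 CPM with TNF-α. The part of these changes in the responses of the lamina genes was not tested.

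Vehicle-treated granulocytes were compared with vehicle-treated promyelocytes, a comparison in which cell type and experiment cannot be told apart. All 10 genes passed, 4 higher and 6 lower in granulocytes, where 75.1% of 17118 genes did (36.6% higher and 38.5% lower), and none of the 10 had overlapping groups (76.6% of all genes did not overlap). Among those lower in granulocytes, the log2 difference (granulocytes minus promyelocytes) was -2.53 ± 0.0843 for *LMNA* (edgeR adjusted p = 9.07e-22), -1.79 ± 0.0804 for *SUN1*, -1.53 ± 0.0541 for *LMNB2*, -1.34 ± 0.0516 for *LMNB1*, -0.77 ± 0.080 for *EMD* and -0.72 ± 0.0506 for *TMPO*. Among those higher, it was 1.97 ± 0.259 for *SYNE1*, 1.94 ± 0.0514 for *SUN2* (edgeR adjusted p = 3.19e-24), 0.70 ± 0.0511 for *LBR* (edgeR adjusted p = 2.26e-13) and 0.44 ± 0.0532 for *LEMD3*. The A-type and B-type lamin transcripts were lower, that of the lamin B receptor was higher, and *SUN1* and *SUN2* went in opposite directions. All 14 S phase markers and 13 of 14 mitosis markers were lower in the granulocytes as well, and their part in these differences was not tested.

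This comparison and the TNF-α comparison of granulocytes use the same 3 granulocyte vehicle libraries, so their differences are set side by side without a test of likeness. For *LMNA* they were -2.53 and 1.05 on the log2 scale, for *LMNB2* -1.53 and 0.51, for *LMNB1* -1.34 and -0.31, and for *LBR* 0.70 and -0.67. For *EMD* they were -0.77 and 0.53, and for *SUN2* 1.94 and -0.33.

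**Figure D4:**
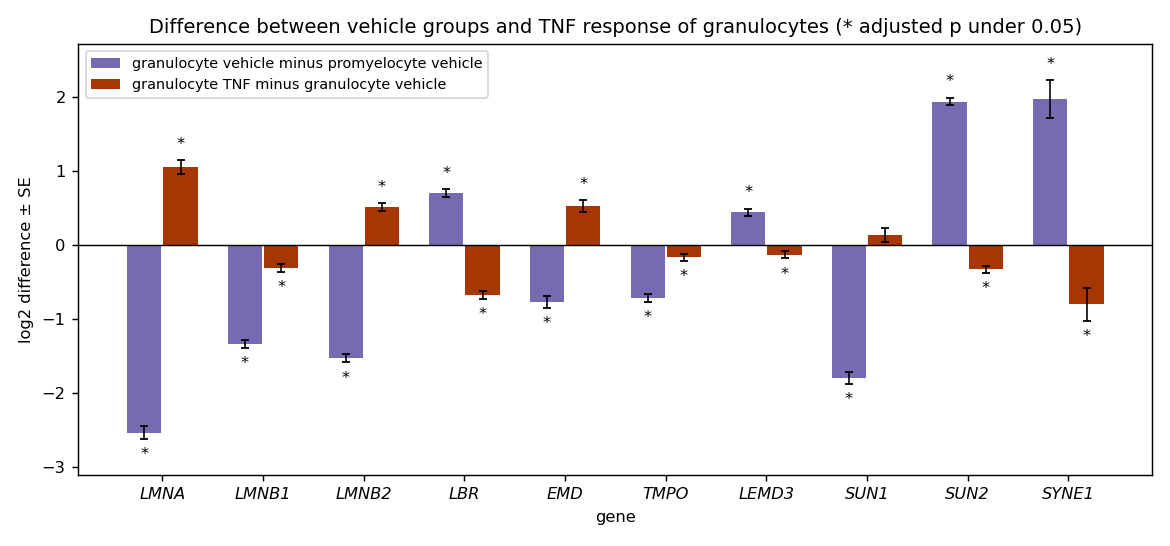
Log2 difference between granulocyte vehicle and promyelocyte vehicle libraries (purple) and between granulocyte TNF-α and granulocyte vehicle libraries (brown) for each gene, with standard errors and a star where edgeR's adjusted p was under 0.05. Both use the same granulocyte vehicle libraries, and *LMNA* stands at -2.53 and 1.05.

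Of 74 other envelope genes, 68 were tested in promyelocytes, where 6 rose and 3 fell, and 69 in granulocytes, where 23 rose and 17 fell. Without the second TNF-α library of promyelocytes, 4 rose and 1 fell there. Their median log2 difference was 0.03 in promyelocytes and 0.05 in granulocytes. Of all genes tested 8.15% rose and 6.65% fell in promyelocytes, and 24.4% rose and 24.8% fell in granulocytes. In promyelocytes the nuclear pore genes *NUP153*, by 0.53 ± 0.0545 on the log2 scale, and *NUP58*, by 0.39 ± 0.0637, rose most (edgeR adjusted p = 4.18e-07 and 0.000171). *ANKLE1* (0.30) and *ANKLE2* (0.24), LEM domain genes, rose as well, and *TMEM120B* (-0.29), the pore membrane gene *NUP210* (-0.27) and *TMEM201* (-0.27) fell.

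In granulocytes the largest increases, among genes whose groups did not overlap and whose log2 CPM averaged 1 or more, were those of *ANKLE1*, by 1.44 ± 0.131, of *SYNE3*, which encodes nesprin-3, by 1.13 ± 0.0609 (46.7 to 103.6 CPM), of *NUP153*, by 0.95 ± 0.0494, and of *RCE1*, which encodes a protease that processes prelamin A and other farnesylated proteins, by 0.85 ± 0.0783 (edgeR adjusted p from 1.13e-18 to 1.43e-11). The largest decreases within the same limits, as log2 differences, were those of *TOR1AIP1*, which encodes the inner membrane protein LAP1 (-0.57 ± 0.0474), *SPAST*, which encodes the microtubule-severing enzyme spastin (-0.56 ± 0.0587), *NARF* (-0.55 ± 0.0559) and the LEM domain gene *LEMD2* (-0.45 ± 0.0605). By list, 11 of 31 nuclear pore genes rose and 8 fell, where 24.4% of all genes tested rose and 24.8% fell. Of 6 lamin processing genes 2 rose and 2 fell, and of 11 other inner membrane and lumen genes 4 rose and 2 fell. All 3 HP1 heterochromatin genes fell, with log2 differences of -0.18 for *CBX1*, -0.15 for *CBX3* and -0.15 for *CBX5*. These falls were small, 1.13-, 1.11- and 1.11-fold, and the 3 genes were named after their values were seen. Of 10 envelope sealing ESCRT genes 2 rose and 1 fell.

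**Figure D5:**
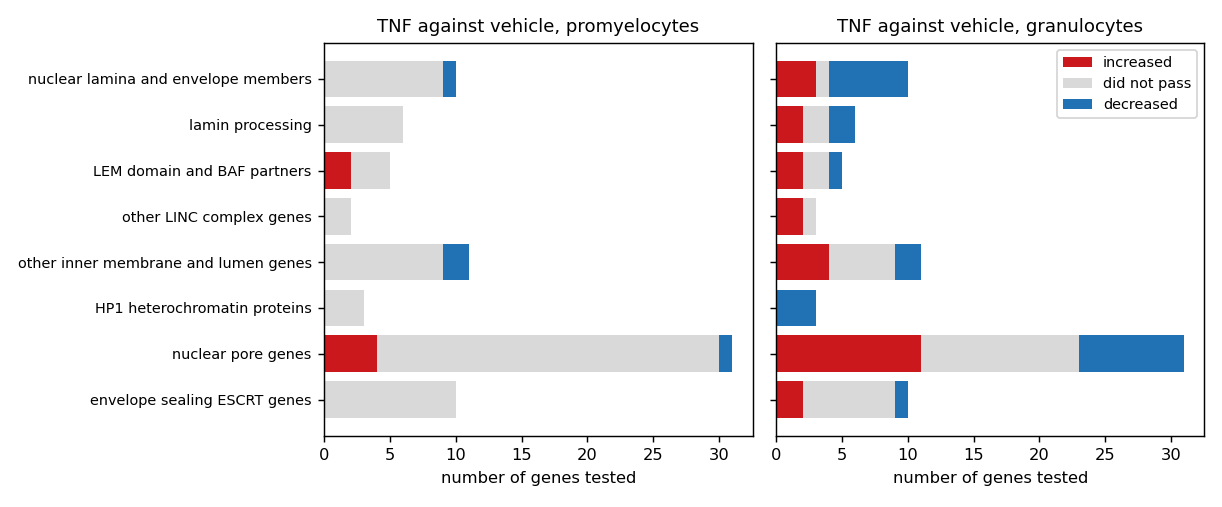
Number of genes in each envelope list that rose (red), fell (blue) or did not pass (grey) with TNF-α in promyelocytes and granulocytes. The 31 nuclear pore genes hold 11 that rose and 8 that fell in granulocytes, and 4 and 1 in promyelocytes. Of all genes tested 24.4% rose and 24.8% fell in granulocytes, and 8.15% and 6.65% in promyelocytes.

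Genes with the most similar pattern over the 12 libraries were found by the root mean square difference of centred log2 CPM among 12367 genes. For *LMNA* these were *TRG-AS1* (0.140), *ITPR3* (0.151) and *PIEZO1* (0.157). In promyelocytes with vehicle and TNF-α and granulocytes with vehicle and TNF-α, *TRG-AS1* averaged 43.9, 43.5, 8.84 and 16.9 CPM. In the same order *ITPR3* averaged 30.4, 26.4, 5.38 and 9.16 CPM, and *PIEZO1* 147.9, 129.2, 20.5 and 46.4 CPM. For *LMNB1* they were *AKAP1* (0.067), *TRIM28* (0.072) and *PGRMC2* (0.073). For *LBR* they were *CNOT8* (0.062), *TMEM106B* (0.067) and *CD47* (0.071). The 12 libraries come from the separate promyelocyte and granulocyte experiments, so any difference between the experiments is part of these patterns. The measure is a description of these libraries.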

How the data were processed

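The authors depleted ribosomal RNA, sequenced paired ends, aligned to hg38 with STAR (2.5.3a) and counted read pairs per gene with featureCounts (1.5.2) and GENCODE 27, using primary alignments, both ends mapped, no chimeric pairs and the reverse strand. They deposited these counts without normalization. By default, featureCounts drops pairs that fit exons of several genes on 1 strand. Here each comparison was fitted on all genes with edgeR 4.0.16 (R 4.3.3): TMM, filterByExpr (minimum count 10, total 15), the quasi-likelihood test, and p-values adjusted by Benjamini-Hochberg (threshold 0.05). The study's own methods used DESeq2, which was run here (1.42.0) as an alternative. Standard errors were derived from the fold change and the F statistic. The other alternatives were 1 fit of all 12 libraries, a replicate block, no filter, DESeq2 size factors, removal of GC and length trends, the stricter threshold 0.01, and each library left out in turn. An exact permutation of 3 against 3 libraries cannot go below p = 0.1. Members and gene lists were chosen with earlier results of these data known. Beside the members, the 4 largest called increases and decreases among other envelope genes (mean log2 CPM of at least 1, groups not overlapping) and the 3 nearest profiles are named. *CBX1*, *CBX3* and *CBX5* were named outside this rule after their values were seen. The fits were also run on simulated counts with the same dispersion for every gene and no GC trend. That run therefore cannot speak to the GC trends of these data.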

Additional observations from a re-analysis of the deposited data

Results flagged for a closer look

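Of the 10 genes, 5 are listed because their response to TNF-α differed between granulocytes and promyelocytes by the interaction test of edgeR over all 12 libraries. The difference, granulocytes minus promyelocytes on the log2 scale, was 1.06 for *LMNA*, 0.54 for *LMNB2*, 0.71 for *EMD*, -0.59 for *LBR* and -0.21 for *TMPO*. The first 4 passed in 12 of 12 fits without 1 library, and *TMPO* in 6 of 12. The cell types were run as separate experiments, so cell type and experiment cannot be told apart in these differences.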

How the results depend on the processing

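With all libraries kept, 209 single-gene values kept their direction and side of the threshold, 8 lost the call, 3 gained one and 9 changed sign. The sign changes were all in values that did not pass. They were, on the log2 scale, *LMNB2* in promyelocytes with all 12 libraries in 1 fit (-0.009), and, with GC and length trends removed, *TMPO* (-0.004) and *SUN1* (0.021) in promyelocytes and the interaction of *SUN2* (-0.174). The interaction of *LEMD3* was -0.048 with DESeq2 size factors, -0.081 without a filter and -0.056 in DESeq2, and that of *SYNE1* -0.031 without a filter and -0.002 in DESeq2. Without 1 library, values that changed sign ran from -0.027 to 0.090 for *LMNA*, from -0.032 to 0.044 for *LMNB2* and from -0.057 to 0.029 for *SUN1* in promyelocytes, and from -0.030 to 0.029 for *LEMD3* and from -0.059 to 0.200 for *SYNE1* in the interaction. The cause was not tested. The number of members that passed in promyelocytes was 1, and 2 with all 12 libraries in 1 fit (*LMNB1* added) or with GC and length trends removed (*LEMD3* added). The number of other envelope genes that passed in promyelocytes was 9, 5 at a threshold of 0.01, and 5 to 10 without 1 library, with 5 without the second TNF-α library. The *LEMD3* call in granulocytes was lost without vehicle library 2 or 3 or TNF-α library 1, 2 or 3 (edgeR adjusted p up to 0.139). The *TMPO* interaction was lost without promyelocyte vehicle library 2 or 3, promyelocyte TNF-α library 1, granulocyte vehicle library 2 or granulocyte TNF-α library 1 or 2 (up to 0.104).

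The labels give no link between same-numbered libraries beyond the number. Their deviations correlated at -0.274 to -0.119 in promyelocytes and -0.168 to -0.017 in granulocytes. These are deviations from means of 3 libraries, over 3 pairs each, so they cannot tell whether handling was shared. With the replicate number as a block, 1 member passed in promyelocytes, 8 in granulocytes (without *LEMD3*, -0.128) and 4 in the interaction (without *TMPO*, -0.212). *SYNE1* had no adjusted p in DESeq2 in promyelocytes. With 9 to 81 counts in its libraries, depth limits *SYNE1* most.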

Other observations

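Between the vehicle groups, where cell type and experiment cannot be told apart, 29 of 31 nuclear pore genes were lower in granulocytes and 0 were higher, with a median log2 difference of -0.83 beside -0.0124 for all genes tested. All 3 HP1 heterochromatin genes were lower, with a median of -0.41. Of the 10 envelope sealing ESCRT genes 7 were higher and 2 lower, with a median of 0.47. Of all genes tested 36.6% were higher and 38.5% lower. All 14 S phase markers and 13 of 14 mitosis markers were also lower, and their part in these differences was not tested.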
